A study of Drosophila melanogaster with 12 samples.

Results

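The heat-shock and chaperone genes examined here were Hsf, Hsp83, Hsp22, Hsp23, Hsp26, Hsp27, Hsc70-3, Hsc70-4, Hsc70-5 and DnaJ-1 of Drosophila melanogaster. Members were every probe set annotated to 1 of these 10 symbols alone, which gave 9 probe sets for 8 of the genes, out of 13966 probe sets tested and 10862 genes with a probe set of their own. Hsc70-3 had 2 of them. Hsp22 was on the array only through 3 probe sets that also name CG4456, and no probe set carried Hsp23 in the tables used here. Hsp83 was named through RefSeq's gene table, which lists its probe-set identifier as a synonym, since the platform table does not name it.

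The study measured whole-fly total RNA on Affymetrix DrosGenome1 arrays to compare flies carrying the S284Y allele of dU2AF50, the large subunit of the splicing factor U2AF, with wild-type flies. The 4 groups were S284Y flies at 30C, the temperature the labels call restrictive, S284Y flies at 25C, called permissive, and wild-type (WT) flies at 30C and at 25C. Each group had 3 arrays, and each RNA came from a pool of 5 males and 5 females. The labels give no age, strain background or time spent at a temperature. Groups follow the sample titles, since the free-text description gives 25C for each WT 30C array and, for array 1, the permissive wording too. No label states whether replicates were independent fly pools, so p-values measure only the spread between these samples.

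When proteins unfold, Hsf, the single heat-shock transcription factor of the fly, forms trimers, binds heat-shock elements and switches on the genes of the inducible chaperones. Those are Hsp70, Hsp68, the small heat-shock proteins, which hold unfolded proteins without using ATP, and DnaJ-1, a J-domain partner of Hsp70. Hsp83, the fly Hsp90, which heat also raises, and the Hsc70 proteins are made at all times and fold proteins in the cytosol, endoplasmic reticulum and mitochondria. Laboratory heat shocks are usually short exposures above the range in which flies are raised, and the question asked of these arrays was whether 30C was accompanied by higher levels of the same genes in either genotype.

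Signals are linear, with the arrays already scaled to a common 2% trimmed mean (1000.12 to 1000.18). Fold changes are log2 differences of signal + 16, given with their standard error (SE), and a change was called where the adjusted p of limma's moderated test over all 13966 probe sets was under 0.05. The S284Y 25C arrays were the least alike: the lowest correlation of log2 signals within that group was 0.821, between arrays 2 and 3. The lowest for array 1 was 0.856, against 0.945 or more in the other 3 groups. Marker lists for ovary and eggshell, female fat body, testis, accessory gland, muscle, fat body and eye were summed on every array. Single marker signals went as low as 16.8, for testis in WT flies at 25C. No detection calls were used, so these sums do not show that each tissue was read. The summed signal of the 9 ovary and eggshell markers was 131017 to 147199 in S284Y flies at 30C and 151204 to 279368 in S284Y flies at 25C, and it was 120077 to 128619 in WT flies at 30C and 148968 to 182381 in WT flies at 25C. The 4 muscle markers summed to 6841 to 9678 in S284Y flies at 30C and 13245 to 34401 in S284Y flies at 25C, with 8343 to 9123 in WT flies at 30C and 15429 to 20990 in WT flies at 25C. Both lists were therefore lower on all 30C arrays than on the 25C arrays of the same genotype. The 3 fat body markers were too, at 1329 to 2009 in S284Y flies at 30C and 3246 to 5920 in S284Y flies at 25C, with 5615 to 8864 in WT flies at 30C and 11954 to 13687 in WT flies at 25C. The 8 testis markers summed to 12496 to 15822 in S284Y flies at 30C and 17182 to 23687 in S284Y flies at 25C, and overlapped between temperatures in WT flies. The 3 female fat body markers summed to 635799 on S284Y 25C array 2, against 116855 and 144561 on S284Y 25C arrays 1 and 3, with 111221 to 153939 in S284Y flies at 30C, 34845 to 83078 in WT flies at 30C and 83071 to 144916 in WT flies at 25C. The 6 accessory gland markers summed to 40289 on S284Y 25C array 3, against 9793 to 17009 on the other 11 arrays. The part of these tissues in the changes described here was not tested, and in whole-fly RNA fewer cells of a type and less RNA per cell cannot be told apart.

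The heat-shock and chaperone genes shared no common direction at 30C: 7 of the 9 probe sets had a difference above 0 in S284Y flies and 4 of 9 in WT flies, where 46.0% and 47.6% of all probe sets did. In S284Y flies, 1 of the 9 probe sets passed the test, Hsf, which was higher at 30C, where 4.0% of all probe sets passed in either direction, 1.82% as higher and 2.18% as lower. At an unadjusted p under 0.05 there were 3 of 9, Hsf, Hsc70-5 and DnaJ-1, beside 25.7% of all probe sets. In WT flies 0 of the 9 passed by limma (1 at an unadjusted p under 0.05, Hsc70-5, beside 6.49% of all probe sets), where 0.0931% of all probe sets passed. Averaged over both genotypes 0 of the 9 passed by limma (3 at an unadjusted p under 0.05, the same 3 as in S284Y flies, beside 22.8%), where 2.53% of all probe sets passed. The median change of the 9 probe sets was 0.21 in S284Y flies and -0.14 in WT flies on the log2 scale, beside medians of -0.07 and -0.02 over all probe sets tested in those genotypes. Without the dimmest 40%, 8380 probe sets were left, of which 55.1% were above 0 in S284Y flies (median 0.08) and 53.3% in WT flies (median 0.02), and 6 and 3 of the 8 members left were. Leaving out S284Y 25C arrays 2 and 3 leaves 1 array in that group, so differences against it are given there without a test. In that fit 3 of the 9 were above 0 in S284Y flies, with a median of -0.06. Over all probe sets 49.3% were, with a median of -0.01.

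**Figure D1:**
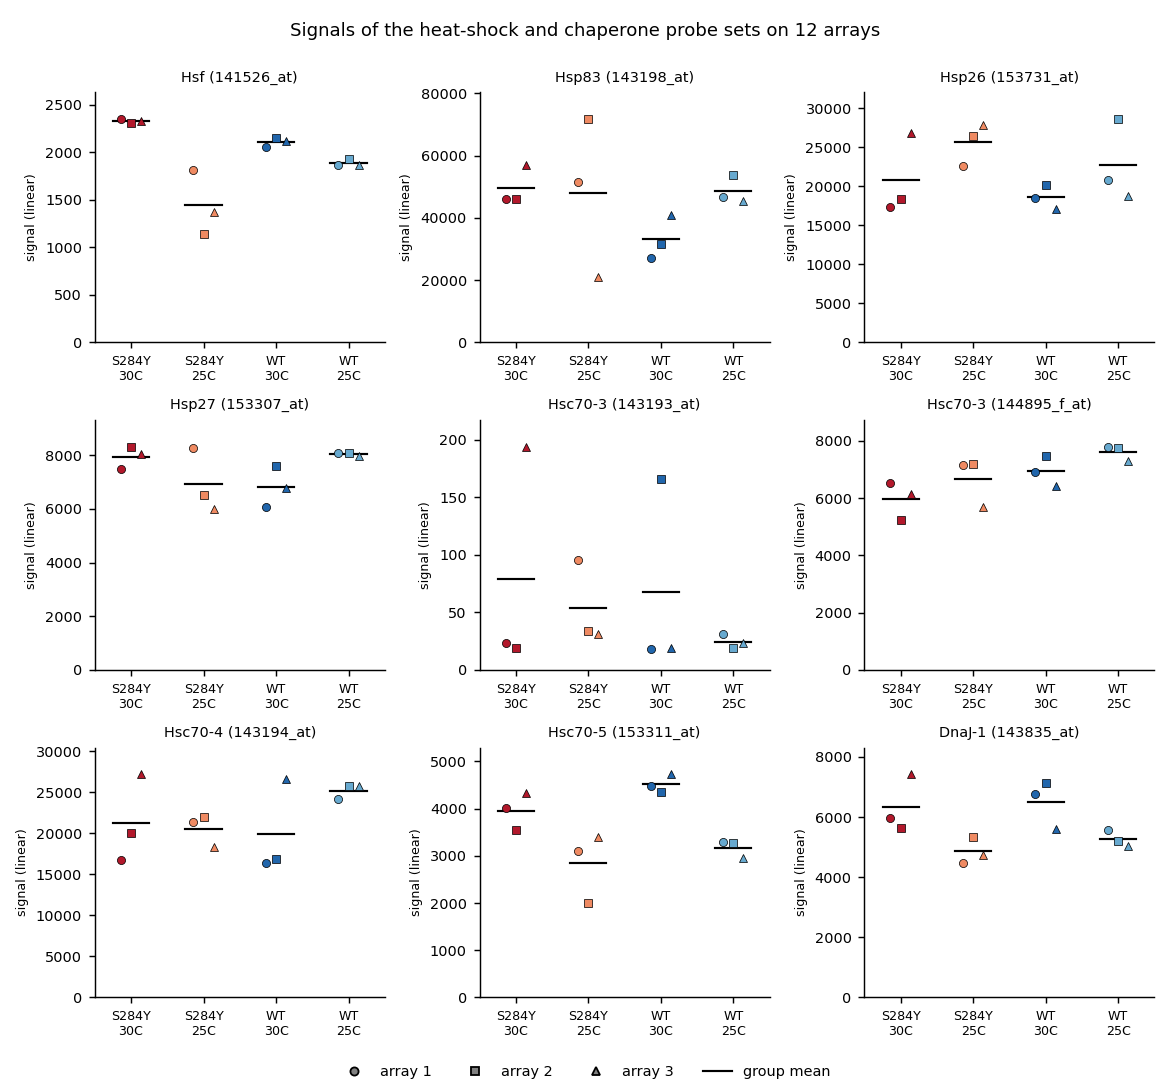
Linear signal of the 9 probe sets (one panel each, y axis from 0, panels not comparable with each other) on the 12 arrays, by genotype and temperature; symbols are arrays and bars are group means. Hsf, Hsc70-5 and DnaJ-1 are the 3 whose 30C arrays all lie above the 25C arrays of the same genotype in both genotypes.

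Hsf itself gave 2346.5, 2303.8 and 2329.1 on the S284Y 30C arrays, against 1816.5, 1140.4 and 1371.4 on the S284Y 25C arrays. The 30C arrays lay within a narrow band above every 25C array, and S284Y 25C arrays 2 and 3 were the lowest of the 12. In WT flies Hsf gave 2056.7, 2150.7 and 2115.3 at 30C, against 1869.9, 1929.3 and 1870.5 at 25C, so the groups did not overlap there either, with a much smaller gap. Ordered by level, S284Y 30C (2326 ± 21.5), WT 30C (2108 ± 47.5), WT 25C (1890 ± 34.1) and S284Y 25C (1443 ± 344, SD, n = 3 each) were 4 groups with no overlap between neighbours.

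Hsf rose by 0.71 on the log2 scale (SE 0.17, adjusted p = 0.0428) in S284Y flies at 30C. In WT flies the difference was 0.16 (SE 0.17, adjusted p = 0.96), with an interval of 0.861-fold to 1.44-fold (95%). The 2 responses differed by 0.55 (SE 0.24, adjusted p = 0.607), so a difference in response between genotypes was not called. The Hsf call in S284Y flies rested on a thin margin: leaving out 1 array ended it for 10 of the 12 arrays, all but S284Y 25C arrays 1 and 3, with adjusted p of 0.0673 to 0.149, and 7 of 10 other alternatives ended it too (adjusted p of 0.0558 to 0.301). Without S284Y 25C arrays 2 and 3 together, the Hsf difference was 0.35, measured against 1 array.

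**Figure D2:**
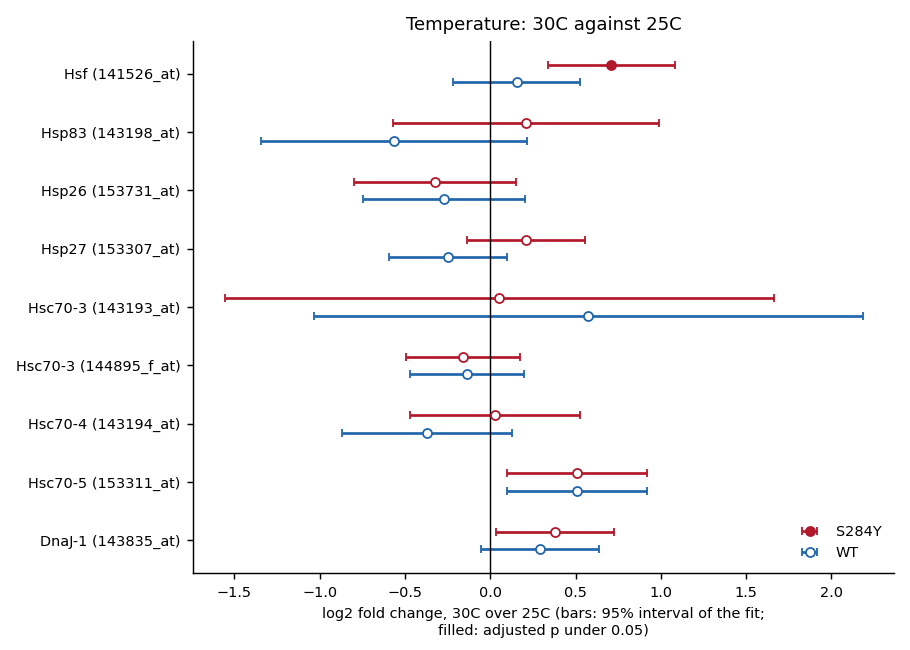
Log2 fold change of signal + 16, 30C over 25C, for the 9 probe sets in S284Y flies (red, upper of each pair) and WT flies (blue, lower); points are limma estimates, bars their 95% intervals, and the filled point is past an adjusted p of 0.05. Hsf in S284Y flies (0.71) is the filled point, and Hsc70-5 has the same estimate (0.51) in both genotypes.

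Of the small heat-shock proteins, which Hsf induces, Hsp26 and Hsp27 had a probe set of their own and neither was called at 30C. Hsp26, a small heat-shock protein, gave 17372.8, 18392.6 and 26814.6 on the S284Y 30C arrays, against 22583.7, 26508.6 and 27912.7 on the S284Y 25C arrays. On the WT arrays it gave 18484.1, 20195.4 and 17065.6 at 30C, against 20834.5, 28600.5 and 18747.1 at 25C. The groups overlapped in both genotypes, with the 30C mean the lower one each time. The differences were -0.32 in S284Y flies (SE 0.22, adjusted p = 0.372) and -0.27 in WT flies (SE 0.22, adjusted p = 0.929). Their intervals were 0.576-fold to 1.11-fold in S284Y flies and 0.597-fold to 1.15-fold in WT flies.

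Hsp27, a second small heat-shock protein, which in flies is also made in the ovary and nervous system without heat, had differences of opposite sign in the genotypes, neither called. It gave 7473.6, 8311.0 and 8042.9 on the S284Y 30C arrays, against 8266.3, 6523.7 and 5977.1 on the S284Y 25C arrays, which overlapped (0.21, SE 0.16, adjusted p = 0.423). WT flies had 6052.6, 7593.0 and 6770.9 at 30C, against 8070.5, 8097.4 and 7963.1 at 25C. All 3 WT 30C arrays were below the 3 WT 25C arrays, which lay close together, but the difference of -0.25 was not called (SE 0.16, adjusted p = 0.877). Without S284Y 25C arrays 2 and 3, the Hsp27 difference in S284Y flies was -0.06.

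Hsp83, the fly Hsp90, gave 46056.2, 46044.4 and 56972.1 on the S284Y 30C arrays, against 51607.5, 71712.1 and 21070.8 on the S284Y 25C arrays. S284Y 25C arrays 2 and 3 held both the highest and the lowest Hsp83 signal of all 12 arrays, and the SD of that group was 25500 around a mean of 48130. In WT flies Hsp83 gave 27236.6, 31668.4 and 40929.8 at 30C, against 46712.2, 53755.8 and 45373.1 at 25C, with every 30C array the lower. The temperature differences were 0.21 in S284Y flies (SE 0.36, adjusted p = 0.747) and -0.56 in WT flies (SE 0.36, adjusted p = 0.877). In WT flies the interval was 0.394-fold to 1.16-fold. Hsp83, Hsp26 and Hsp27 RNAs are known to be abundant in fly ovaries without heat, and the ovary and eggshell markers were lower at 30C in both genotypes, as given above. The differences of Hsp83, Hsp26 and Hsp27 at 30C were 0.21, -0.32 and 0.21 in S284Y flies. In WT flies they were -0.56, -0.27 and -0.25, and the part of the ovary in any of them was not tested.

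Of the constitutive Hsc70 genes, Hsc70-5 had the clearest separation by temperature, and no member of the family was called. Hsc70-5, the mitochondrial Hsp70, gave 4006.4, 3547.5 and 4325.3 on the S284Y 30C arrays, against 3098.9, 2010.5 and 3406.1 on the S284Y 25C arrays. The WT arrays gave 4481.7, 4359.3 and 4728.1 at 30C, against 3295.5, 3279.9 and 2952.9 at 25C. Every 30C array was above every 25C array of its genotype. The difference was 0.51 in S284Y flies (SE 0.19, adjusted p = 0.124) and 0.51 in WT flies (SE 0.19, adjusted p = 0.652), and averaged over genotypes it was 0.51 (SE 0.13, adjusted p = 0.0593), a ratio of 1.42 with an interval of 1.17-fold to 1.74-fold.

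Hsc70-5 thus missed the threshold in each of the 3 temperature comparisons, but was called under several alternatives. In WT flies it was called when only the 6 WT arrays were fitted (adjusted p = 0.0293) and when S284Y 25C arrays 2 and 3 were left out (adjusted p = 0.0264). In S284Y flies it was called without S284Y 25C array 3 (0.66, adjusted p = 0.0298). Averaged over genotypes it was called in 5 of 21 alternatives, with differences of 0.39 to 0.58 over all of them.

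Hsc70-4, the abundant cytosolic Hsc70, gave 16686.8, 19975.5 and 27180.2 on the S284Y 30C arrays, against 21310.8, 21986.3 and 18289.6 on the S284Y 25C arrays. In WT flies the signals were 16395.5, 16806.5 and 26631.6 at 30C, against 24133.9, 25728.6 and 25708.5 at 25C. Temperature groups overlapped in both genotypes, and array 3 of each 30C group was far above its other 2 arrays and above every 25C array of its genotype. The differences were 0.03 in S284Y flies (SE 0.23, adjusted p = 0.956) and -0.37 in WT flies (SE 0.23, adjusted p = 0.866).

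Hsc70-3, the Hsp70 of the endoplasmic reticulum known as BiP in mammals, was read by a bright and a dim probe set. The bright one, whose suffix marks probes shared within a gene family, gave 6530.1, 5223.2 and 6140.9 on the S284Y 30C arrays, against 7145.1, 7199.3 and 5699.4 on the S284Y 25C arrays. In WT flies it gave 6933.1, 7481.5 and 6423.3 at 30C, against 7797.8, 7743.8 and 7314.9 at 25C. Temperature groups overlapped in both genotypes, with differences of -0.16 in S284Y flies (SE 0.15, adjusted p = 0.536) and -0.14 in WT flies (SE 0.15, adjusted p = 0.961). The dim probe set ran from 18 to 193.8 over the 12 arrays, and its intervals of 0.34-fold to 3.16-fold in S284Y flies and 0.488-fold to 4.54-fold in WT flies leave it without a usable direction.

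DnaJ-1, the J-domain co-chaperone that heat induces together with Hsp70, gave 5972.2, 5639.0 and 7421.4 on the S284Y 30C arrays, against 4477.3, 5348.3 and 4742.5 on the S284Y 25C arrays. On the WT arrays it gave 6751.9, 7117.4 and 5605.5 at 30C, against 5559.0, 5207.0 and 5039.2 at 25C. Neither genotype overlapped between temperatures, although WT 30C array 3 was only just above the highest WT 25C array. The differences were 0.38 in S284Y flies (SE 0.16, adjusted p = 0.163), 0.29 in WT flies (SE 0.16, adjusted p = 0.813) and 0.34 averaged over genotypes (SE 0.11, adjusted p = 0.113). DnaJ-1 was called in 0 of the 21 alternatives for the averaged comparison by limma, at adjusted p of 0.0512 to 0.304.

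Hsf, Hsc70-5 and DnaJ-1 were the 3 probe sets of 9 with all 3 arrays higher at 30C in S284Y flies, a pattern that 12.9% of all probe sets showed. They were also the 3 of 9 in WT flies, where 11.3% of all probe sets showed it. Both genotypes showed it for 3.97% of all probe sets. The reverse, all 3 arrays lower at 30C, held for 0 of 9 in S284Y flies (13.4% of all probe sets) and for Hsp83 and Hsp27 in WT flies (12.2% of all probe sets).

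The classical inducible genes could be read only in part. Hsp68, an Hsp70-family gene that is strongly induced by heat shock, gave 325.7, 393.2 and 312.5 on the S284Y 30C arrays, against 465.8, 387.5 and 488.7 on the S284Y 25C arrays. WT flies had 59.3, 366.7 and 314.5 at 30C, against 347.0, 365.9 and 291.4 at 25C. Temperature groups overlapped, WT 30C array 1 was the lowest of all 12, and the differences were -0.37 in S284Y flies (SE 0.50, adjusted p = 0.682) and -0.72 in WT flies (SE 0.50, adjusted p = 0.899). Without WT 30C array 1, or with it counted among the WT 25C arrays, as its description reads, the Hsp68 difference in WT flies moved to 0.03 and 0.58, with adjusted p of 0.9997 and 0.9998.

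Hsp70 itself was measured by probe sets that name several gene copies and cannot tell them apart. The probe set naming Hsp70Ba, Hsp70Bb, Hsp70Bbb and Hsp70Bc gave 379.9, 506.9 and 318.6 on the S284Y 30C arrays, against 785.3, 754.1 and 1222.1 on the S284Y 25C arrays. The WT arrays gave 301.7, 316.3 and 280.9 at 30C, against 283.3, 419.8 and 235.5 at 25C. The S284Y 25C arrays were thus the highest, and 30C was lower in S284Y flies without a call (-1.15, SE 0.31, adjusted p = 0.0562). That difference was called without the dimmest 40% of probe sets (adjusted p = 0.0349) and without S284Y 25C array 1 (-1.25, adjusted p = 0.0323). In WT flies it was -0.02 (SE 0.31, adjusted p = 0.998), with the groups overlapping. The other Hsp70 probe set, which also names CG5608, gave other values. It gave 666.8, 678.5 and 401.4 on the S284Y 30C arrays, against 535.6, 721.3 and 498.7 on the S284Y 25C arrays, a difference of -0.03 (SE 0.40, adjusted p = 0.974). In WT flies its signals were 270.2, 414.7 and 175.1 at 30C, against 643.2, 822.7 and 326.1 at 25C, which overlapped (-1.0, SE 0.40, adjusted p = 0.715).

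Hsp22, a small heat-shock protein of the mitochondria, shared its 3 probe sets with CG4456, which RefSeq lists under the synonym Hsp67Bb, so its own level was not read. The brightest of them gave 1861.9, 2159.1 and 1849.7 on the S284Y 30C arrays, against 1562.8, 1749.0 and 2574.8 on the S284Y 25C arrays, which overlapped (0.03, SE 0.20, adjusted p = 0.951). In WT flies the signals were 2441.0, 2264.0 and 3150.9 at 30C, against 1547.5, 1697.3 and 1743.1 at 25C, with no overlap but no call (0.64, SE 0.20, adjusted p = 0.512). The WT difference was called when S284Y 25C arrays 2 and 3 were left out (adjusted p = 0.0372).

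The dimmest probe set of Hsp22 and CG4456 gave 131.0, 144.3 and 169.5 on the S284Y 30C arrays, against 303.9, 309.3 and 530.6 on the S284Y 25C arrays, lower at 30C without a call (-1.23, SE 0.37, adjusted p = 0.0713), and it was called without S284Y 25C array 1 (-1.37, adjusted p = 0.0403). In WT flies it gave 299.3, 359.0 and 266.9 at 30C, against 302.1, 153.6 and 292.4 at 25C, which overlapped (0.34, SE 0.37, adjusted p = 0.96). The remaining one gave -0.42 in S284Y flies (SE 0.27, adjusted p = 0.337) and 0.26 in WT flies (SE 0.27, adjusted p = 0.954). All 3 probe sets thus had a difference above 0 in WT flies, none of them called, and in S284Y flies 1 was near 0 and the other 2 were below it. Since the probe sets are shared, no direction is given for Hsp22.

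**Figure D3:**
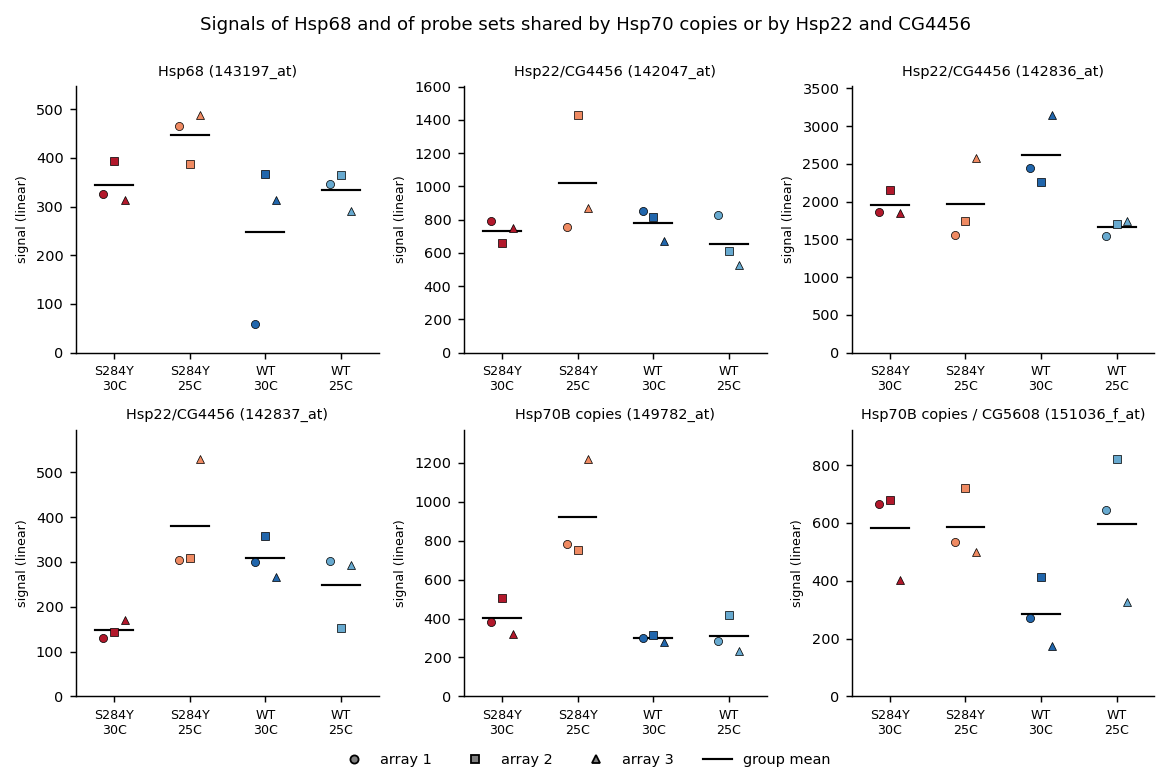
Linear signal of Hsp68, of the 3 probe sets shared by Hsp22 and CG4456 and of the 2 probe sets shared by Hsp70 copies on the 12 arrays (y axes from 0, panels not comparable with each other); symbols are arrays and bars are group means. The Hsp70 probe set that does not name CG5608 is highest on the 3 S284Y 25C arrays (754.1 to 1222.1), and the other Hsp70 probe set does not show this.

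Genotype made no called difference to the 9 probe sets at either temperature. At 30C, S284Y flies differed from WT flies in 0 of 9 by limma (0 at an unadjusted p under 0.05, beside 11.0% of all probe sets), where 1.53% of all probe sets passed. At 25C they differed in 0 of 9 (1 at an unadjusted p under 0.05, Hsf, beside 13.9% of all probe sets), where 0.788% passed. The interaction of genotype and temperature was called for 0 of 9 and for 0.0% of all probe sets (1127 at an unadjusted p under 0.05, 8.07%).

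On the log2 scale, Hsf differed by 0.14 in S284Y against WT flies at 30C (SE 0.17, adjusted p = 0.886) and by -0.41 at 25C (SE 0.17, adjusted p = 0.331), with no overlap between genotypes at either temperature. Without S284Y 25C array 1, the 25C difference of Hsf was called (-0.59, adjusted p = 0.0379), and without S284Y 25C arrays 2 and 3 it was -0.06. Hsp83 was higher on every S284Y 30C array than on every WT 30C array, by 0.59 (SE 0.36, adjusted p = 0.646), and this was called without S284Y 25C arrays 2 and 3 (adjusted p = 0.0417). At 25C the Hsp83 genotypes overlapped (-0.18, SE 0.36, adjusted p = 0.841).

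At 30C, Hsf and Hsp83 were the 2 probe sets of 9 with all S284Y arrays higher (14.8% of all probe sets) and Hsc70-5 the 1 with all lower (13.3% of all probe sets). At 25C, Hsf, the bright Hsc70-3 probe set and Hsc70-4 had all S284Y arrays lower (7.15% of all probe sets), and 0 of 9 had all higher (7.53% of all probe sets). Hsc70-4 differed by -0.30 at 25C (SE 0.23, adjusted p = 0.569) and 0.10 at 30C (SE 0.23, adjusted p = 0.947), and Hsc70-5 by -0.20 at both temperatures (SE 0.19, adjusted p = 0.837 at 30C and 0.654 at 25C).

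**Figure D4:**
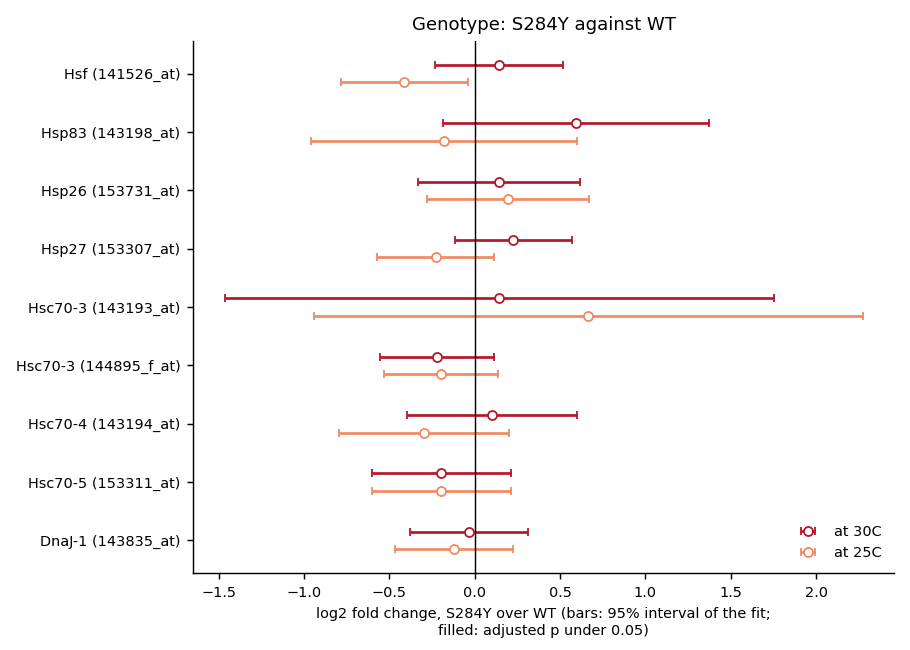
Log2 fold change of signal + 16, S284Y over WT, for the 9 probe sets at 30C (red, upper of each pair) and 25C (orange, lower); points are limma estimates and bars their 95% intervals. None of the points is filled, since none passed an adjusted p of 0.05; Hsf at 25C (-0.41) has an interval that stays below 0.

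The Hsp70 probe set that does not name CG5608 was the 1 heat-shock probe set called between genotypes at 25C among those described here. It was higher in S284Y flies by 1.51 on the log2 scale (SE 0.31, adjusted p = 0.0435), with 785.3, 754.1 and 1222.1 on the S284Y arrays and 283.3, 419.8 and 235.5 on the WT arrays. The other Hsp70 probe set differed by 0.05 in the same comparison (SE 0.40, adjusted p = 0.963). The call was lost when any of 10 of the 12 arrays was left out, all but S284Y 25C arrays 1 and 2 (adjusted p of 0.0582 to 0.199). Without S284Y 25C arrays 2 and 3 together the difference was 1.32.

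Hsc70-4 was also named on 2 probe sets together with Acbp3, an acyl-CoA-binding protein gene, and these gave other results than the probe set of Hsc70-4 alone. The first averaged 1104 ± 113 on the S284Y 30C arrays, 3230 ± 129 on the S284Y 25C arrays, 3037 ± 412 on the WT 30C arrays and 4130 ± 282 on the WT 25C arrays (SD, n = 3 each). It fell by 1.54 in S284Y flies at 30C against 25C (adjusted p = 0.00132) and by 1.44 in S284Y against WT flies at 30C (adjusted p = 0.000343). The second fell by 1.27 (adjusted p = 0.00875) and by 1.55 (adjusted p = 0.000746) in the same comparisons. Leaving out S284Y 30C array 3 ended its call in S284Y flies at 30C against 25C (adjusted p = 0.0543), and fitting only the 6 S284Y arrays ended that of both (adjusted p = 0.193 and 0.298). Which of the 2 genes these shared probe sets read cannot be told from the array, and the Hsc70-4 probe set showed 0.03 and 0.10 in those comparisons, as given above.

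Around these genes, a list of 45 other measured heat-shock and chaperone genes was set beside them, with 1 probe set, the brightest, for each. In S284Y flies 4 of the 45 were called at 30C against 25C, 2 higher (CG1416 and Cnx99A) and 2 lower (Fkbp59 and CG7409), beside 4.0% of all probe sets. In WT flies 0 of 45 were called by limma (5 at an unadjusted p under 0.05, beside 6.49% of all probe sets), beside 0.0931%. That count was 3 with only the 6 WT arrays fitted (Hsp60A, crc and CG1416) and 2 without S284Y 25C array 3 (Hsp60A and CG1416). All probe sets called in WT flies rose there from 13 to 178 and 99. Changes were above 0 for 31 of 45 in S284Y flies and 32 of 45 in WT flies, where 46.0% and 47.6% of all probe sets were. Without the dimmest 40% of probe sets, 30 of 42 (71.4%) and 31 of 42 (73.8%) were above 0, beside 55.1% and 53.3% of the 8380 probe sets left. Averaged over genotypes 3 of 45 were called (CG1416, Fkbp59 and CG7409), beside 2.53%. Between genotypes at 25C 0 of 45 were called by limma, beside 0.788% (6 at an unadjusted p under 0.05, beside 13.9%). The interaction was called for 0 of 45, beside 0.0% (2 at an unadjusted p under 0.05, beside 8.07%).

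**Figure D5:**
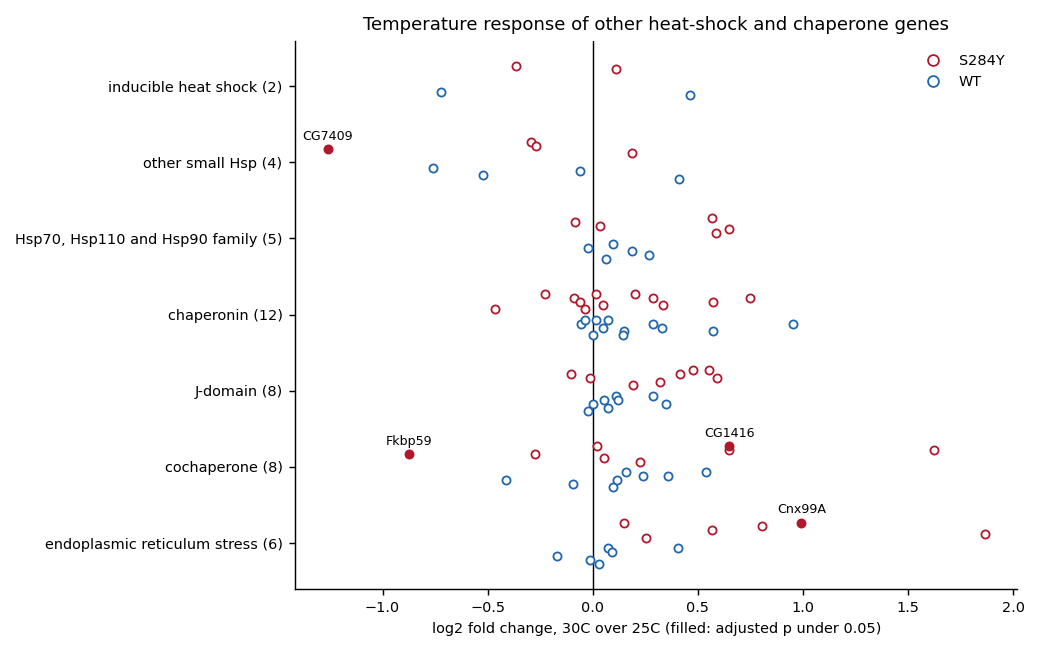
Log2 fold change of signal + 16, 30C over 25C, of 45 other heat-shock and chaperone genes by family (number of genes in brackets) in S284Y flies (red, upper row) and WT flies (blue, lower row); points are spread vertically to be visible. The 4 filled points, all in S284Y flies, are those past an adjusted p of 0.05, CG1416 (0.65) and Cnx99A (0.99) higher and Fkbp59 (-0.87) and CG7409 (-1.26) lower.

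CG1416, the fly counterpart of the Hsp90 co-chaperone Aha1 of mammals, gave 3997.7, 3763.7 and 4278.0 on the S284Y 30C arrays, against 2565.4, 2479.6 and 2601.7 on the S284Y 25C arrays. In WT flies it gave 3704.8, 3686.7 and 3315.5 at 30C, against 2609.8, 2562.8 and 2194.7 at 25C, so every 30C array exceeded every 25C array of either genotype. Averaged over genotypes it rose by 0.59 (SE 0.10, adjusted p = 0.0111), and 19 of 21 alternatives called it, among them all 12 that left out 1 array. It was not called without the trend in limma (adjusted p = 0.0507) or with WT 30C array 1 counted as WT 25C (adjusted p = 0.129). Within genotypes it rose by 0.65 in S284Y flies (adjusted p = 0.0301) and differed by 0.54 in WT flies (adjusted p = 0.329). The WT difference was called with only the 6 WT arrays fitted (adjusted p = 0.0402), without S284Y 25C array 3 (adjusted p = 0.0408) and without S284Y 25C arrays 2 and 3 (adjusted p = 0.024). The S284Y call was lost without any of 8 single arrays, all but the 3 S284Y 25C arrays and WT 25C array 3 (adjusted p of 0.0523 to 0.131).

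Fkbp59, an immunophilin of the peptidyl-prolyl isomerase class, gave 1258.4, 1081.2 and 1323.0 on the S284Y 30C arrays, against 1812.3, 2442.2 and 2541.2 on the S284Y 25C arrays. On the WT arrays it gave 2285.7, 2274.3 and 2269.0 at 30C, against 2642.1, 3548.2 and 2986.5 at 25C. It was lower at 30C on every array of both genotypes and lowest in S284Y flies at 30C. Fkbp59 fell by 0.87 in S284Y flies (adjusted p = 0.0272), by 0.64 averaged over genotypes (adjusted p = 0.0248) and by 0.90 in S284Y against WT flies at 30C (adjusted p = 0.0239), and 1 of the 45 was called in that last comparison, beside 1.53% of all probe sets. The S284Y temperature call was lost without any 1 of the S284Y 30C arrays or WT 30C array 2 (adjusted p of 0.0503 to 0.102). Without S284Y 25C arrays 2 and 3 the difference was -0.57. The averaged call was lost without 7 of the 12 arrays, WT 25C arrays 2 and 3, all 3 WT 30C arrays and S284Y 30C arrays 2 and 3 (adjusted p of 0.0523 to 0.078), and the genotype call without any of the 6 arrays at 30C (adjusted p of 0.0679 to 0.125).

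CG7409, a small heat-shock protein with an alpha-crystallin domain, gave 816.9, 687.6 and 767.9 on the S284Y 30C arrays, against 1741.9, 1243.9 and 2829.8 on the S284Y 25C arrays. WT flies had 2366.1, 1713.9 and 1321.8 at 30C, against 2529.0, 2590.9 and 2440.3 at 25C, lower at 30C on every array as in S284Y flies. CG7409 fell by 1.26 in S284Y flies (SE 0.27, adjusted p = 0.0316) and by 0.89 averaged over genotypes (SE 0.19, adjusted p = 0.0339). The S284Y call was lost without 7 of the 12 arrays, the 3 S284Y 30C and the 3 WT 25C arrays and WT 30C array 2 (adjusted p of 0.0534 to 0.121), and the averaged call without those and WT 30C array 3 (adjusted p of 0.0618 to 0.0954). In S284Y against WT flies at 30C CG7409 differed by -1.195, with every S284Y array the lower, and was not called. Several alternatives called it: quantile normalization (adjusted p = 0.0363), leaving out the dimmest 40% of probe sets (0.0427) and only the 6 arrays compared (0.00741). So did leaving out S284Y 25C array 2 (adjusted p = 0.0196) or array 3 (0.00232). The ovary and eggshell, muscle and fat body markers were lower at 30C on the same arrays, and their part in the fall of CG7409 was not tested.

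Cnx99A, a calnexin that helps glycoproteins fold in the endoplasmic reticulum, gave 8069.7, 8252.4 and 9432.9 on the S284Y 30C arrays, against 6442.6, 3523.8 and 3499.1 on the S284Y 25C arrays. The WT arrays gave 8293.4, 8359.4 and 9341.0 at 30C, against 7554.5, 8084.6 and 9109.4 at 25C, which overlapped. S284Y 25C arrays 2 and 3 were far below the other 10. Cnx99A rose by 0.99 in S284Y flies (SE 0.22, adjusted p = 0.0315), and the call was lost without any of 10 arrays, all but S284Y 25C arrays 1 and 3 (adjusted p of 0.0526 to 0.131). Without S284Y 25C arrays 2 and 3 together the difference was 0.41. Averaged over genotypes Cnx99A was not called (0.53, adjusted p = 0.076). It was called there under quantile normalization (adjusted p = 0.0481) and without S284Y 25C array 1 (0.00315) or array 3 (0.0452). Without S284Y 25C array 1, its S284Y against WT difference at 25C (-1.22, adjusted p = 0.00182) and its interaction (1.21, adjusted p = 0.0349) were called too. The interaction was then called for 84 of all probe sets.

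By family, 0 of the 12 chaperonin genes, 0 of the 8 J-domain genes and 0 of the 5 other Hsp70, Hsp110 and Hsp90 genes were called in either genotype by limma (1, 1 and 3 at an unadjusted p under 0.05 in S284Y flies, and 1, 0 and 0 in WT flies, where 25.7% and 6.49% of all probe sets were). Their median differences at 30C were 0.03, 0.37 and 0.57 in S284Y flies and 0.11, 0.09 and 0.09 in WT flies, beside -0.07 and -0.02 over all probe sets. The 6 endoplasmic reticulum stress genes had a median of 0.69 in S284Y flies, with 1 called (Cnx99A), and 0.05 in WT flies, with 0 called by limma (1 at an unadjusted p under 0.05). Without S284Y 25C arrays 2 and 3 the S284Y median of these 6 was 0.13. It was 0.02 for the J-domain genes, 0.07 for the chaperonins and 0.46 for the other Hsp70, Hsp110 and Hsp90 genes. Of the 8 co-chaperones 2 were called in S284Y flies (CG1416 and Fkbp59), and of the 4 other small heat-shock proteins 1 (CG7409). Over all probe sets 4.0% were called in that comparison, and 0 were with only the 6 S284Y arrays fitted. Of the 12 further inducible genes listed, Hsp68 and stv, a BAG-domain partner of Hsc70, had a probe set of their own, and stv was not called in either genotype (0.11, adjusted p = 0.835 in S284Y flies, and 0.46, adjusted p = 0.859 in WT flies). The probe sets with all 3 arrays higher at 30C in both genotypes were, with the 3 members above, those of CG1416, of CG5504, a J-domain protein of mitochondria, and of Stip1, the adaptor between Hsp70 and Hsp90, 3 of 45 beside 3.97% of all probe sets. CG5504 and Stip1 were singled out after their values were seen, and neither was called (0.42, adjusted p = 0.12, and 0.44, adjusted p = 0.101, averaged over genotypes). Without S284Y 25C array 3, CG5504 was called in S284Y flies (adjusted p = 0.0195) and averaged (0.0127). Stip1 was called in S284Y flies under quantile normalization (adjusted p = 0.0455) and without S284Y 25C array 1 (0.0266). Averaged, Stip1 was called without S284Y 25C array 1 (adjusted p = 0.0361) or array 3 (0.0409).

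Hsp60A, the mitochondrial chaperonin, Gp93, the Hsp90 of the endoplasmic reticulum, and crc, the fly ATF4, a transcription factor, were also singled out after their values were seen, for calls under several alternatives. Hsp60A gave 16889.0, 14566.1 and 15887.0 on the S284Y 30C arrays, against 9292.7, 9736.7 and 21454.6 on the S284Y 25C arrays, which overlapped through array 3 alone. In WT flies it gave 13250.2, 11894.0 and 11276.7 at 30C, against 8119.6, 7639.0 and 8748.9 at 25C, with no overlap. Hsp60A differed by 0.57 in WT flies (adjusted p = 0.764) and 0.34 in S284Y flies (adjusted p = 0.438). Its WT difference was called with only the 6 WT arrays fitted (adjusted p = 0.0297), without S284Y 25C array 3 (adjusted p = 0.0356) and without S284Y 25C arrays 2 and 3 (adjusted p = 0.0191). In S284Y flies, leaving out array 3 of the 25C group gave 0.73 (adjusted p = 0.00746). Leaving out arrays 2 and 3 gave 0.76, against the only array left in that group. Gp93 gave 6116.8, 4972.3 and 5337.7 on the S284Y 30C arrays, all above the 3792.2, 3949.1 and 3304.4 of the S284Y 25C arrays. On the WT arrays it gave 5271.5, 4253.4 and 4687.4 at 30C, against 4215.1, 4626.2 and 4427.7 at 25C, which overlapped. Gp93 differed by 0.57 in S284Y flies (adjusted p = 0.0529), and 5 of 22 alternatives called it (adjusted p of 0.0279 to 0.0497). The level of crc in WT flies was 10985.8, 11016.2 and 11089.8 at 30C, against 8570.0, 8306.6 and 8101.0 at 25C, without overlap. In S284Y flies crc gave 9590.0, 9859.9 and 10050.5 at 30C, against 8333.4, 7316.8 and 11453.2 at 25C, which overlapped. It differed by 0.41 in WT flies (adjusted p = 0.738) and was called there with only the 6 WT arrays fitted (adjusted p = 0.0455) and without S284Y 25C arrays 2 and 3 (adjusted p = 0.0292).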

How the data were processed

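Whole-fly total RNA was hybridised to 12 Affymetrix DrosGenome1 arrays, 4 groups of 3. The deposited values are intensity, 1 linear signal per probe set and array; the authors' steps, software and genome build are not given in the sources used here. Since the 2% trimmed means of the arrays lay within 10% of each other, the signals were used as deposited. Number of arrays limits the precision, and no detection calls were used.

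Of 14010 probe sets, 44 controls were left out. Symbols came from the platform table, updated through Entrez numbers (12442 probe sets with 1 symbol), and for 20 more from RefSeq synonyms alone, Hsp83 among them; for 111 probe sets named singly in both sources, 111 names matched. Probe sets with several symbols (327) entered no gene count.

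Limma 3.58.1 in R 4.3.3 was fitted to log2(signal + 16) of all 12 arrays with a mean for each group (8 residual and 4.83 prior degrees of freedom, with a mean-variance trend). Contrasts were 30C against 25C in each genotype and averaged, S284Y against WT at each temperature, and their interaction, with Benjamini-Hochberg adjustment over 13966 probe sets and a threshold of 0.05. The 30C against 25C contrasts were also run on simulated data, with planted changes larger than those reported here. The genotype and interaction contrasts were not. With 3 arrays against 3, an exact permutation test cannot give a two-sided p below 0.1, so none was run.

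Named are all members, the other chaperone genes past the threshold in any contrast, Hsp68 and the Hsp70 probe sets; exceptions are marked. The members and lists were chosen with earlier results of these data known. Tables and plots were made with Python 3.11.15, pandas 2.3.3 and matplotlib 3.10.9. Alternatives were offsets of 1 and 64, median centring, quantile normalization, leaving out the dimmest 40% of probe sets, no trend, the replicate number as a block, WT 30C array 1 counted as WT 25C, only the 6 arrays compared, leaving out each array, and leaving out S284Y 25C arrays 2 and 3. The last leaves 1 array in the S284Y 25C group.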

Additional observations from a re-analysis of the deposited data

How the results depend on the processing

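The count of heat-shock and chaperone probe sets called at 30C against 25C in S284Y flies was 1 as reported. It was 0 under median centring, quantile normalization, limma without the trend and the replicate block. It was 0 too with WT 30C array 1 counted as WT 25C and with only the 6 arrays compared. Leaving out 1 array gave 0 to 2. The 2 came without S284Y 25C array 3, where all probe sets called rose from 559 to 1026. The count in WT flies, 0 as reported, was 1 (Hsc70-5) with only the 6 arrays compared, where all probe sets called rose from 13 to 178. Hsc70-5 was called in WT flies without S284Y 25C arrays 2 and 3 too, as given above. Averaged over genotypes the count was 1 (Hsc70-5) under quantile normalization and without the dimmest 40% of probe sets, and 0 to 2 without 1 array. The 2 came without S284Y 25C array 1 or array 3, where all probe sets called rose from 354 to 1741 and 1503. Without the dimmest 40% they were 583. Between genotypes at 30C, Hsp83 was called without S284Y 25C arrays 2 and 3, as given above. Between genotypes at 25C the count was 0 to 1 without 1 array. The 1 (Hsf) came without S284Y 25C array 1, where all probe sets called rose from 110 to 885. Without S284Y 25C arrays 2 and 3, the Hsc70-5 difference in WT flies stayed at 0.51, with SE 0.097 against 0.19 as reported. The Hsp83 difference at 30C stayed at 0.59, with SE 0.16 against 0.36. The 4 groups share 1 estimate of the spread, so these calls came with a smaller SE and an unchanged difference. In the other cases the cause was not tested. Of 130 such counts, 103 stayed within 1.5 times the reported one, which for a reported 0 means 0 again. All reported counts were 0 except the 1 at 30C against 25C in S284Y flies. That count moved in 11 of the 12 fits without 1 array, so the 103 do not show that it is stable.

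Among the 45 other genes, the count in S284Y flies was 4. It was 0 without the trend, with the replicate block and with only the 6 arrays compared, and 0 to 11 without 1 array. The 11 came without S284Y 25C array 1, where all probe sets called rose from 559 to 2398. In WT flies, 0 became 3 with only the 6 arrays compared and 2 without S284Y 25C array 3. All probe sets called in WT flies rose there from 13 to 178 and 99. Averaged, 3 became 7 under quantile normalization, 0 without the trend and with WT 30C array 1 moved, and 1 to 10 without 1 array. The 10 came without S284Y 25C array 3, where all probe sets called rose from 354 to 1503. Between genotypes at 30C, 1 became 3 with only the 6 arrays compared and 0 to 3 without 1 array. All probe sets called were 1106 with only those 6 arrays, against 213 as reported. Of all probe sets, 559 were called in S284Y flies (17 to 2398 without 1 array, 0 to 837 under other settings), 13 in WT flies (1 to 99, and 0 to 200) and 354 averaged (79 to 1741, and 7 to 740). At 30C 213 were called between genotypes (82 to 821, and 106 to 1278), at 25C 110 (48 to 885, and 17 to 165), and for the interaction 0 (0 to 84, and 0).

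The labels do not say whether shared replicate numbers pair the samples. Correlations of deviations between same-numbered arrays of different groups were -0.13 to 0.06 over 18 pairs. Over 36 pairs of other numbers they were -0.04 to 0.09. Same-numbered arrays were thus no more alike, but such correlations cannot exclude that they were handled together. With the replicate number as a block the Hsf call in S284Y flies was lost (adjusted p = 0.0694). The setting of only the 6 arrays compared has no form for the averaged and interaction contrasts. No called probe set reversed under any alternative. Alternatives other than leaving out 1 array ended the 30C against 25C call in S284Y flies in 3 of 10 for CG7409 (adjusted p of 0.0552 to 0.299), 4 of 10 for Fkbp59 (0.052 to 0.299), 4 of 10 for Cnx99A (0.0587 to 0.299) and 6 of 10 for CG1416 (0.051 to 0.299). Averaged over genotypes they ended it in 4 of 9 for CG7409 (0.0593 to 0.0725) and 2 of 9 for Fkbp59 (0.0641 to 0.108). Between genotypes they ended it in 3 of 10 for Fkbp59 at 30C (0.0745 to 0.114) and 4 of 10 for the Hsp70 probe set at 25C (0.0615 to 0.355).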
